A study of Homo sapiens with 6 samples.

Results

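The genes described here are those of the cyclin-dependent kinase (CDK) inhibitors, chosen by symbol from a list of 8: Cdkn1a, Cdkn1b, Cdkn1c, Cdkn2a, Cdkn2b, Cdkn2c, Cdkn2d and Cdkn3. Of these, 7 had a row among the 22413 genes of the table, and Cdkn1c was not analysed here. Their mRNA levels were read from sequencing of BaF3-T315I cells, with 3 samples of a control group and 3 of cells given 1.1 µM of I13, a histone deacetylase (HDAC) inhibitor, for 48 h. Both groups are the same line, murine BaF3 cells stably transfected with T315I-mutated BCR-ABL, so the fusion gene is shared by the controls. The vehicle and the time of the control are not given in the sources used here, and the labels do not say whether the samples of a group came from separate cultures. The methods speak in general of independent experiments without naming the sequenced samples, so the p-values are taken to measure only the spread between these samples, which may be technical. The labels name the organism as human, whereas the gene identifiers are those of mouse, and the values were taken as mouse genes.

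CDK inhibitors of the Ink4 and Cip/Kip families bind CDKs or cyclin-CDK complexes and slow the passage from G1 into S phase. The Ink4 proteins, which bind Cdk4 and Cdk6, are encoded by Cdkn2a (p16Ink4a), Cdkn2b (p15Ink4b), Cdkn2c (p18Ink4c) and Cdkn2d (p19Ink4d). The Cip/Kip proteins of Cdkn1a (p21Cip1) and Cdkn1b (p27Kip1) act on a wider range of complexes, Cdk2 included. Cdkn2a also encodes Arf, read in another frame from an alternative first exon, which restrains Mdm2 and so stabilises p53. Induction of p21 is a widely described response to HDAC inhibitors, and the study reported accumulation of these cells in G0/G1 phase, which gives the question of how the transcripts of the CDK inhibitors stood after I13.

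After I13, 6 of the 7 CDK inhibitor genes had a log2 fold change above 0, as did 49.2% of all genes tested, and Cdkn1b had one below 0. Cdkn2a showed the largest fold change of the 7, with a mean of 12.2 ± 2.12 FPKM after I13 against 5.23 ± 2.56 FPKM in the control (SD, n = 3 each), and Cdkn2b the next largest, with 4.86 ± 1.34 against 2.82 ± 0.678 FPKM. Cdkn1a, the most abundant of the genes, had values that overlapped between the groups. FPKM is the number of fragments on a gene scaled to the length of the gene and to the total of mapped fragments in the library. In limma on log2(FPKM + 0.1), 0 of the 7 genes passed the thresholds of the study (adjusted p under 0.05 together with a log2 fold change of 0.58 or more in size). Of the 12163 genes tested, 0.0411% passed both. An unadjusted p below 0.05 was found for 3 of the 7 genes (Cdkn1b, Cdkn2a and Cdkn2b) against 18.6% of all genes. At the same thresholds the study reported more differentially expressed genes than passed here, and named Cdkn2a in a pathway enriched among them. The study does not name its test, so its calls and those given here may rest on unlike methods.

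The 7 genes all passed the filter on low values, a mean of at least 0.5 FPKM over the 6 samples. In order of their mean level over the 6 samples they were Cdkn1a (136 FPKM), Cdkn2d (31.6), Cdkn2c (13.3), Cdkn3 (11.1), Cdkn1b (11.01), Cdkn2a (8.73) and Cdkn2b (3.84). Cdkn1a lay above Cdkn2d, and Cdkn2d above Cdkn2c, in all 6 samples with no overlap of their ranges. Cdkn2c lay above Cdkn3 in all 6 samples, although their ranges overlapped. Cdkn3 lay above Cdkn1b in 3 of the 6 samples, and Cdkn1b above Cdkn2a in 3 of the 6, so the order within each of these pairs is not fixed. Cdkn2b lay below Cdkn2a in 5 of the 6 samples, control replicate 2 being the exception. Among all genes tested Cdkn1a stood at percentile 97.2 of mean FPKM and Cdkn2b at percentile 32.9. Cdkn1a alone held 62.8% ± 2.37 (SD, n = 3) of the summed FPKM of the 7 genes in the control and 62.9% ± 2.55 (SD, n = 3) after I13. The share of Cdkn2a was 2.55% ± 0.997 (SD, n = 3) in the control and 5.22% ± 0.0957 (SD, n = 3) after I13. A share of FPKM is a share of fragments per length and says nothing of the proteins.

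**Figure D1:**
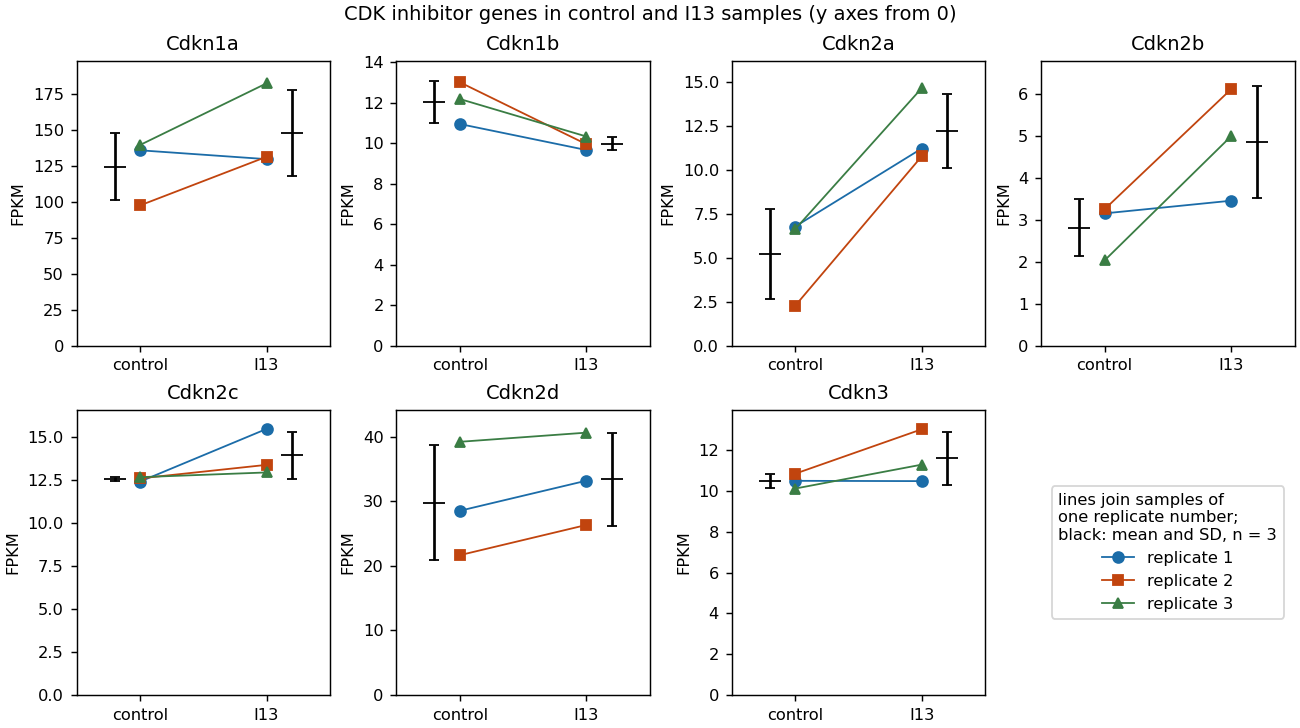
FPKM of the 7 CDK inhibitor genes in each of the 3 control and 3 I13 samples, with lines joining samples of the same replicate number and black bars for the mean and SD; every y axis starts at 0. The 3 lines of Cdkn2a climb from 2.27 to 6.79 FPKM in the control to 10.8 to 14.7 FPKM after I13, while those of Cdkn2d stay apart by replicate number.

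Among the Ink4 genes, Cdkn2a (ENSMUSG00000044303) had 6.79 FPKM in control replicate 1, 2.27 in replicate 2 and 6.63 in replicate 3. Its level after I13 was 11.2 FPKM in replicate 1, 10.8 in replicate 2 and 14.7 in replicate 3. The groups did not overlap, and control replicate 2 lay far below the other controls. The 47 fragments behind that value, recovered from the FPKM, allow 1.67 to 3.02 FPKM (95% exact Poisson interval, counting error only), which does not reach the interval of control replicate 3 with 137 fragments, 5.57 to 7.84 FPKM. The lowest I13 sample, replicate 2 with 212 fragments, had an interval of 9.39 to 12.3 FPKM, above the 8.01 FPKM that bounds the highest control. The differences within the control group and between the groups are thus both larger than counting error.

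Taken by replicate number, Cdkn2a was 1.65 times as high after I13 in replicate 1, 4.74 times in replicate 2 and 2.21 times in replicate 3. The I13 values of replicates 1 and 2 were close to each other, and the larger ratio of replicate 2 goes with its low control. Over all samples the log2 fold change was 1.35 (standard error 0.40, 95% interval 0.41 to 2.29), rank 119 from the top of the 12163 genes, with an adjusted p of 0.159 from limma. With the replicate number as a block, a term for each same-numbered pair, the standard error was 0.28 and the adjusted p from limma 0.0618. With limma's voom on the recovered fragments and the block, Cdkn2a passed both thresholds (log2 fold change 1.25, adjusted p = 0.015), as did 4.14% of all genes tested. Without both samples of replicate 2 that fit gave a log2 fold change of 0.94 and an adjusted p from voom of 0.19, and it stayed past both thresholds without replicate 1 or without replicate 3. Without control replicate 2 alone, limma gave a log2 fold change of 0.84 at an adjusted p of 0.229, and over the fits that left out 1 sample the adjusted p ran from 0.181 to 0.364. Transcripts for Ink4a and for Arf share this row and cannot be told apart in it.

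Cdkn2b (ENSMUSG00000073802), the gene of p15Ink4b, stood in the controls at 3.16 FPKM (replicate 1), 3.26 FPKM (replicate 2) and 2.04 FPKM (replicate 3). After I13 it stood at 3.46, 6.12 and 5.003 FPKM in the same order. The groups did not overlap, but I13 replicate 1 lay only just above the highest control. Their 95% exact Poisson intervals, 2.77 to 4.28 FPKM on 85 fragments and 2.58 to 4.05 FPKM on 80 fragments, overlapped. From limma the difference was 0.76 on the log2 scale, with a 95% interval of 0.15 to 1.36 and an adjusted p of 0.193. By replicate number the value after I13 was 1.10, 1.88 and 2.46 times that of the control in replicates 1, 2 and 3. The gene thus passed the fold change threshold without passing that of the adjusted p. Its log2 fold change lay below that threshold without control replicate 3 (0.55), without I13 replicate 2 (0.576) and in the blocked limma fit without both samples of replicate 3 (0.51).

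Cdkn2c (ENSMUSG00000028551), the gene of p18Ink4c, varied little in the controls, with 12.4, 12.6 and 12.7 FPKM in replicates 1, 2 and 3. After I13 these were 15.5, 13.4 and 12.95 FPKM. The groups did not overlap, yet the lowest I13 sample and the highest control were 609 and 600 fragments, which is within counting error. Limma put the log2 fold change at 0.14 (95% interval -0.09 to 0.38, adjusted p = 0.47). Cdkn2c had the lowest coefficient of variation among the controls of all 7 genes, 1.07%, while that of Cdkn2a was the highest, 49.0%.

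Cdkn2d (ENSMUSG00000096472), the gene of p19Ink4d and the most abundant of the Ink4 genes, had control values of 28.5, 21.7 and 39.2 FPKM for replicates 1, 2 and 3. After I13 the values were 33.2, 26.3 and 40.6 FPKM. The groups overlapped, and in each of them replicate 2 was lowest and replicate 3 highest. Within each number the value after I13 was higher, at 1.16, 1.22 and 1.04 times the control in replicates 1, 2 and 3. Limma gave a log2 fold change of 0.18 (95% interval -0.38 to 0.75, adjusted p = 0.716 from limma), and with the replicate block the standard error fell from 0.24 to 0.08 at an adjusted p of 0.193 from limma. The direction itself turned without control replicate 2, with a log2 fold change of -0.0249.

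The Cip/Kip gene Cdkn1a (ENSMUSG00000023067) had control values of 136, 97.5 and 139 FPKM for replicates 1, 2 and 3. Its I13 values were 129.7, 131 and 182 FPKM for the same numbers. The groups overlapped, as I13 replicates 1 and 2 lay below control replicates 1 and 3. Each value rested on at least 3822 fragments, so counting error was small beside the spread between replicates. On the log2 scale the difference from limma was 0.25 (adjusted p = 0.504), and its 95% interval, -0.19 to 0.69, runs past the threshold of 0.58. By replicate number the value after I13 was 0.955, 1.35 and 1.31 times that of the control. Without control replicate 2 the log2 fold change was 0.08.

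Cdkn1b (ENSMUSG00000003031), the gene of p27Kip1, was the member with lower values after I13. Its control values were 10.9, 13.01 and 12.2 FPKM for replicates 1, 2 and 3, and its I13 values were 9.66, 9.95 and 10.3 FPKM. The groups did not overlap, and the I13 samples differed among themselves by less than the controls did. The means were 12.04 ± 1.04 and 9.98 ± 0.335 FPKM (SD, n = 3 each). In limma this was a log2 fold change of -0.27 (95% interval -0.50 to -0.03, adjusted p = 0.223). The whole interval lies within 0.58 of 0. The ratio of Cdkn1a to Cdkn1b FPKM was 12.4, 7.50 and 11.5 in control replicates 1, 2 and 3 and 13.4, 13.2 and 17.7 after I13.

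Cdkn3 (ENSMUSG00000037628) encodes a phosphatase that acts on CDKs and belongs to neither family. The controls held 10.5, 10.9 and 10.1 FPKM and the I13 samples 10.5, 13.04 and 11.3 FPKM, in the order of replicates 1, 2 and 3. The groups overlapped through I13 replicate 1, and the fragments behind the values, 138 to 169 per sample, set counting intervals that overlapped between all of them. With limma the log2 fold change came to 0.14 (95% interval -0.12 to 0.39, adjusted p = 0.524).

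**Figure D2:**
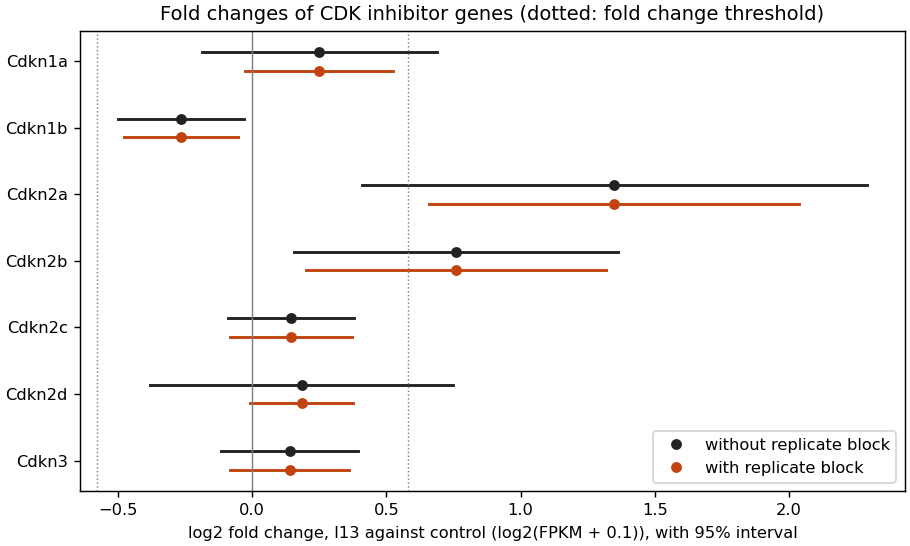
Log2 fold change of each CDK inhibitor gene, I13 against control on the log2(FPKM + 0.1) scale, with 95% intervals from limma without (black) and with (orange) the replicate block; dotted lines mark the fold change threshold of 0.58. The intervals of Cdkn2a and Cdkn2b lie above 0 and that of Cdkn1b below it in both fits, and the interval of Cdkn2d narrows with the block.

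For 4 of the 7 genes the groups did not overlap, 3 with higher values after I13 (Cdkn2a, Cdkn2b and Cdkn2c) and 1 with lower values (Cdkn1b). Over all genes tested 9.82% were higher and 15.4% lower without overlap. The same-numbered samples gave a higher value after I13 in all 3 pairs for Cdkn2a, Cdkn2b, Cdkn2c and Cdkn2d, as for 24.1% of all genes tested, and a lower one in all 3 pairs for Cdkn1b, as for 27.3%. A log2 fold change of at least 0.58 was reached by Cdkn2a and Cdkn2b, and by 6.08% of all genes tested in that direction. The median log2 fold change was 0.18 over the 7 genes and -0.005 over all genes tested.

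The genes differed in how their spread over the 6 samples was divided. For Cdkn2d 89.4% of the sum of squares of log2(FPKM + 0.1) lay between the replicate numbers and 8.27% between the conditions, and for Cdkn1a the parts were 59.2% and 22.6%. For Cdkn1b, Cdkn2a and Cdkn2b the conditions held the larger part, with 74.9%, 62.3% and 59.0%. Over all genes tested 27.7% lay between the conditions and 44.2% between the replicate numbers. The low control replicate 2 was shared by Cdkn2a, Cdkn1a and Cdkn2d, which lay 1.01, 0.33 and 0.42 below their control means on the log2 scale. It was not shared by Cdkn1b, Cdkn2b or Cdkn3, whose control replicate 2 was the highest of the controls. Nor was it shared by Cdkn2c, which lay 0.005 above its control mean there. What sets the replicate numbers apart was not tested.

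**Figure D3:**
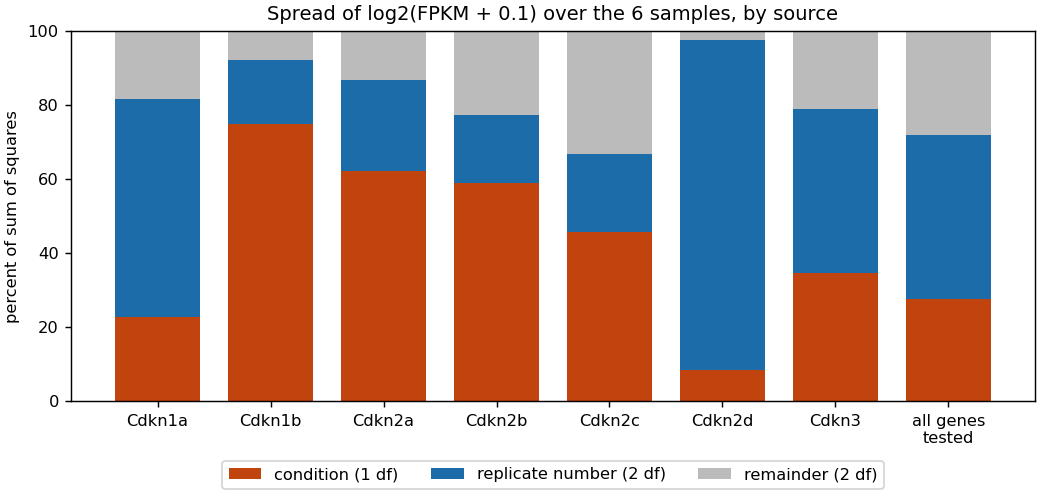
Percent of the sum of squares of log2(FPKM + 0.1) over the 6 samples that lay between conditions, between replicate numbers and in the remainder, for each CDK inhibitor gene and for all genes tested. Replicate number holds 89.4% for Cdkn2d and condition 74.9% for Cdkn1b.

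Cdk4 and Cdk6 are the kinases that the Ink4 proteins bind. The FPKM of the 4 Ink4 genes summed to 50.9, 39.8 and 60.6 in control replicates 1, 2 and 3 and to 63.4, 56.7 and 73.3 after I13. That of Cdk4 and Cdk6 together was 167, 163 and 146 in the control and 116, 121 and 119 after I13. The Ink4 sums overlapped between the groups, whereas those of Cdk4 and Cdk6 did not. The row of Cdkn2a in the Ink4 sum also holds Arf transcripts, which do not encode an Ink4 protein. The ratio of the sums was therefore 0.304, 0.244 and 0.416 in control replicates 1, 2 and 3 and 0.546, 0.467 and 0.615 after I13, without overlap and higher in each of the 3 numbers. Cdk4 and Cdkn2a, which the study picked from these samples for its pathway, take part in this ratio, so it is given as a description with no test. Of the summed FPKM of the 4 Ink4 genes Cdkn2d held 58.4% ± 5.56 in the control and 51.5% ± 4.56 after I13 (SD, n = 3 each). The share of Cdkn2a was 13.3%, 5.72% and 10.95% in control replicates 1, 2 and 3 and 17.7%, 19.05% and 20.02% after I13, without overlap.

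**Figure D4:**
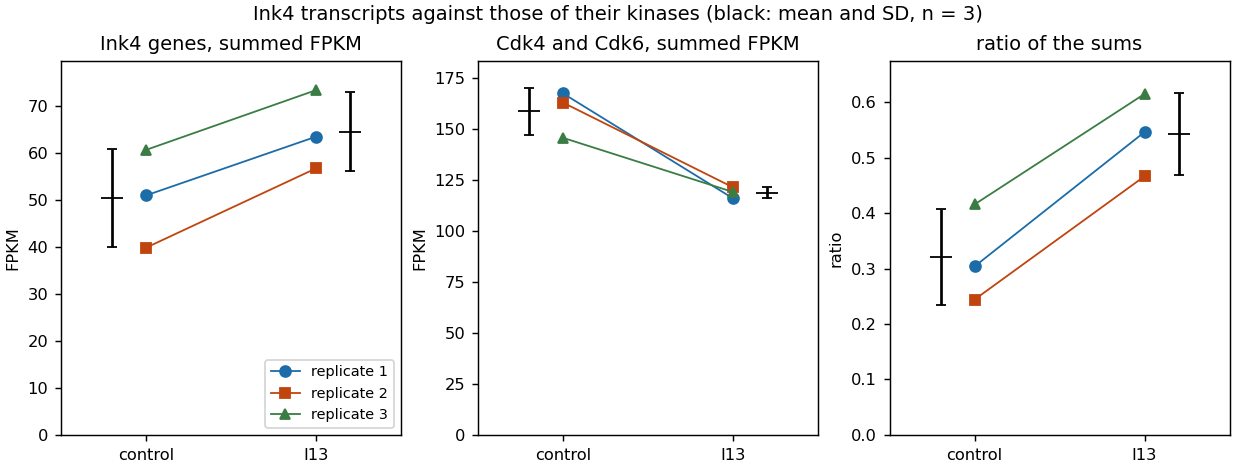
Summed FPKM of the 4 Ink4 genes, summed FPKM of Cdk4 and Cdk6, and the ratio of these sums in each sample, with lines joining samples of one replicate number and black bars for the mean and SD. The ratio lies between 0.244 and 0.416 in the controls and between 0.467 and 0.615 after I13.

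The genes tied to the CDK inhibitors were followed in 6 lists with 82 genes in all, of which 70 were tested. In limma without the block, 0 of the 70 passed both thresholds, against 0.0411% of all genes tested, and 21 had an unadjusted p below 0.05, 11 higher and 10 lower, against 18.6% of all genes. With voom on the recovered fragments and no block, 0 passed, against 0.0493% of all genes tested, and 20 had an unadjusted p below 0.05, against 19.4% of all genes. With the replicate block, where 1.36% of all genes tested passed with higher and 0.526% with lower values, Mdm2 rose and Cbx8 fell. When the pair numbered 1 was left out, 1 of the 70 was called with the block, against 83 of the 12163 genes tested. When pair 2 or pair 3 was left out, 0 of the 70 were called, and also 0 of all genes tested. Voom with the block called 5 of the 70, against 4.14% of all genes tested. These were Mdm2, Rb1, Klf6 and Btg2 with higher and Cbx8 with lower values (genes outside the rule are named after their values were seen). When pair 2 was left out of this fit, 0 of the 70 were called, against 11 of all genes tested. An adjusted p below 0.05 at any fold change was found with the block for Mdm2, Cbx8, Cdk4 and E2f4, and for 2.99% of all genes tested. The median log2 fold change was 0.02 over the 70 genes against -0.005 over all genes tested.

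Of the 11 cyclins and CDKs tested, 3 had a log2 fold change above 0 and 8 one below 0, with a median of -0.05. Over all genes tested 49.2% lay above 0, with a median of -0.005. Cdk4, the kinase of the D cyclins, was lower, with a log2 fold change of -0.47. Its adjusted p from limma was 0.106 without and 0.049 under the block, and it did not reach the fold change threshold. Ccnd1 was listed at no more than a trace, a mean of 0.0561 FPKM in the control, and was not tested. Ccnd2 and Ccnd3, the D cyclins that were tested, had log2 fold changes of 0.03 and 0.19, and Cdk6 had -0.13. Ccne1 and Cdk2, partners in the complex that Cip/Kip proteins inhibit, had -0.05 and -0.14. Ccne2, the other E cyclin, had 0.48 (adjusted p = 0.252 from limma), with no overlap between the groups and higher values after I13 in all 3 pairs. Cdk4 and Cdk2 also had no overlap, with lower values after I13 in all 3 pairs. The adjusted p of Ccnd2, Ccnd3, Cdk6, Ccne1 and Cdk2 from limma ran from 0.447 to 0.922.

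Among the 13 pocket proteins and E2F factors, none passed both thresholds with or without the block in limma, and 3 had an unadjusted p below 0.05 without it, against 18.6% of all genes tested. Rb1, the target of Cdk4 and Cdk6, had a log2 fold change of 0.64 with an adjusted p from limma of 0.127 (with the block 0.0792). E2f4, a factor that represses with the pocket proteins, had -0.36 and an adjusted p from limma of 0.138 without and 0.0478 under the block, and is named here after its value was seen. In limma without the block, none of the 12 genes for the turnover of Cip/Kip proteins passed both thresholds, against 0.0411% of all genes tested. With the block none passed either, against 1.36% with higher and 0.526% with lower values. Without overlap between the groups, 4 were lower after I13 and 0 higher, against 15.4% and 9.82% of all genes tested. Skp2, the receptor that marks p27 for degradation, had a log2 fold change of 0.38 (adjusted p = 0.527 from limma). Its cofactor Cks1b had -0.30 (adjusted p = 0.187 from limma), with no overlap between the groups. The others without overlap were Ubac1 (-0.34), Rbx1 (-0.32) and Ddb1 (-0.14), named here after their values were seen. Their adjusted p from limma ran from 0.127 to 0.413.

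Of the 11 tested regulators of Ink4/Arf transcription, Cbx8, a Polycomb protein, was 5.40 FPKM on average in the control and 3.44 FPKM after I13. Limma gave Cbx8 a log2 fold change of -0.64, at an adjusted p of 0.0989 without and 0.045 under the block. Other Polycomb genes of the list went in both directions, and none passed. Pcgf2 had a log2 fold change of -0.46 (adjusted p = 0.131 from limma) and Rnf2 one of 0.35 (adjusted p = 0.158 from limma), each without overlap between the groups. Ring1, Bmi1, Suz12, Ezh2 and Eed had -0.19, -0.04, 0.11, 0.16 and 0.24, with adjusted p from limma of 0.311 to 0.893. Among these Ring1 also had no overlap between the groups. Of the 11 tested regulators of Cip/Kip and Cdkn2b, 4 had a log2 fold change above 0 and 7 one below 0, against 49.2% above 0 over all genes tested. Without overlap between the groups, 1 was higher after I13 and 3 were lower, against 9.82% and 15.4% of all genes tested. These were Sp3 (0.41), and Foxo4 (-0.48), Zbtb17 (-0.42) and Trp53 (-0.34), with adjusted p from limma of 0.109 to 0.138. Sp3, Foxo4 and Zbtb17 are named here after their values were seen. Myc, which represses Cdkn1a and Cdkn2b, had a log2 fold change of 0.37 (adjusted p = 0.252 from limma). Foxo3, an activator of Cdkn1b, had -0.12 (adjusted p = 0.629 from limma). Both overlapped between the groups.

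In the list for Arf and p53, 11 of the 13 genes tested had a log2 fold change above 0, against 49.2% of all genes tested. The median was 0.19, against -0.005 over all genes tested. Without overlap between the groups, 4 were higher after I13 and 1 lower, against 9.82% and 15.4% of all genes tested. Mdm2, the ubiquitin ligase of p53 and itself a p53 target, had a log2 fold change of 0.72 with an adjusted p from limma of 0.0989 (with the block 0.0322). Trp53, the gene of p53, had -0.34 (adjusted p = 0.127 from limma), without overlap and with lower values after I13 in all 3 pairs. Btg2, a p53 target that restrains proliferation, had 3.70, 1.80 and 4.70 FPKM in control replicates 1, 2 and 3 and 5.15, 5.59 and 7.39 FPKM after I13, and its control replicate 2 was the lowest sample, as for Cdkn2a. Mdm2 and Rb1 are also among the genes that the study picked from these samples, so their direction is not independent evidence.

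**Figure D5:**
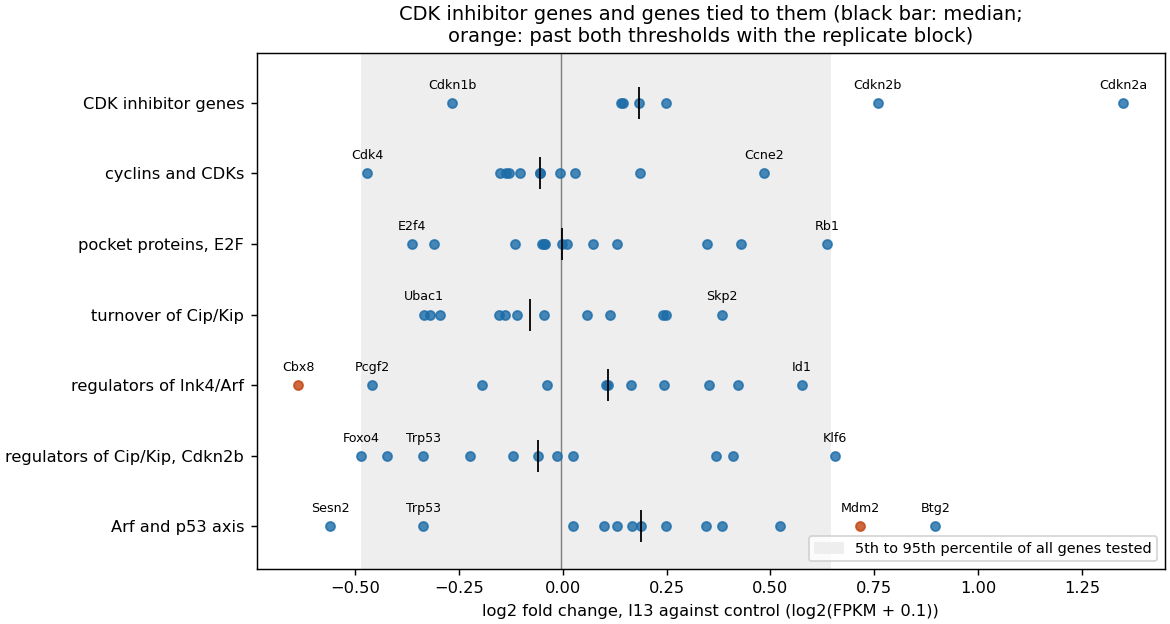
Log2 fold change of the 7 CDK inhibitor genes and of the genes in 6 lists tied to them, I13 against control on the log2(FPKM + 0.1) scale; each point is a gene, black bars are list medians, orange points passed both thresholds with the replicate block, and the grey band runs from the 5th to the 95th percentile of all genes tested (-0.48 to 0.64). Cdkn2a and Cdkn2b lie above the band, and so do Mdm2, Btg2 and Klf6.

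The genes whose pattern over the 6 samples was most like that of a CDK inhibitor gene were found by the root-mean-square distance between log2 values centred on each gene's mean. For Cdkn2a these were S100a11 (0.16), Srgn (0.18) and Pilrb1 (0.18), for Cdkn2b Jup (0.17), Gm12247 (0.19) and BC028528 (0.20). For Cdkn1a they were Plp2, Tmed3 and 1110008P14Rik, at 0.07 each. Cdkn1b was nearest to Tuba1b (0.02), Ankrd33b (0.02) and Nup50 (0.03), and Cdkn2c to Exoc6b (0.02), Epb41l5 (0.02) and Senp6 (0.03). Cdkn2d was nearest to Emilin1 (0.02), Nlgn2 (0.03) and Hsd17b10 (0.05), and Cdkn3 to Ermard, Clybl and Ghitm (0.04, 0.04 and 0.05). Among the inhibitors themselves the closest were Cdkn2c and Cdkn3 at 0.16 and Cdkn1a and Cdkn2d at 0.17, and the farthest were Cdkn1b and Cdkn2a at 0.99.

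The library totals recovered from the FPKM values ran from 16762119 to 17722950 fragments, so depth differed little between the groups. Of 11 markers of Ba/F3 and pro-B identity 10 had a row, and 6 were at 1 FPKM or more in all samples, among them the IL-3 receptor genes Il3ra, Csf2rb and Csf2rb2. Their summed level was 472 to 929 FPKM in the control and 951 to 1699 FPKM after I13, without overlap. Most of that sum lay in Csf2rb, with a mean of 329 FPKM in the control and 588 FPKM after I13, and Csf2rb2, with 286 and 572 FPKM. The means of Il3ra, Ptprc and Cd79a were 11.4, 10.6 and 21.6 FPKM in the control and 14.4, 14.4 and 25.2 FPKM after I13. Cd79b had a lower mean after I13, 4.77 against 5.28 FPKM. Igll1, Vpreb1, Ebf1 and Pax5 were at 0.107 FPKM or below in all samples. Of 12 markers of other blood cells 10 had a row, and their summed level was 5.44 to 8.21 FPKM in the control and 8.03 to 16.6 FPKM after I13. Only Lyz2 and Prtn3 were at 1 FPKM or more in all samples. The means of Hba-a1, Prtn3 and Lyz2 were 0.650, 4.41 and 1.55 FPKM in the control and 3.57, 6.34 and 2.82 FPKM after I13. Of 8 genes listed as markers of non-blood cells 3 had a row. Pecam1 was at 35.5 to 45.9 FPKM over the samples, while Col1a1 and Cdh5 reached at most 0.130 and 0.0142 FPKM. The level of Pecam1 alone is not read here as a sign of non-blood cells. The part of these markers in the values of the CDK inhibitor genes was not tested. Less RNA per cell and fewer cells with a transcript cannot be told apart in bulk samples.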

How the data were processed

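The authors deposited FPKM values of 22413 mouse genes in 6 samples, normalized for gene length and mapped fragments, without pooling. No scaling between samples is stated. The submitters' processing notes name Trimmomatic, HISAT2, Cufflinks and HTSeq and the build hg38, which goes against the mouse gene identifiers; the annotation is not given in the sources used here. Libraries were made with a stranded mRNA kit. No mouse genome was used, so no coordinates or sequences are given. Groups and replicate numbers came from the labels, the time of 48 h from the paper, and 0 columns of values were left without a sample.

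Whole fragments and lengths were recovered for all genes (100% of 22413, tolerance at most 0.03 fragments), with 99.5% of each library total on listed genes. Genes with a mean of at least 0.5 FPKM were compared as log2(FPKM + 0.1) with limma 3.58.1 in R 4.3.3 (eBayes with a trend, Benjamini-Hochberg over 12163 genes). The fits and the recovery were tested on simulated data. Same-numbered samples deviated together from their group means (correlations across genes of 0.15, 0.30 and 0.22 for numbers 1, 2 and 3, others from -0.26 to 0.05). All same-number values exceeded 0.1, which was the rule for treating the numbers as pairs, although no source names a shared batch. A fit with the number as a block was therefore given beside the main one. The rule for named genes took all members, 16 fixed genes of the lists, list genes called with or without the block, and the 3 nearest patterns of each member. The members, lists and tests were chosen with earlier results of these data known. Alternatives were other pseudocounts, filters, scalings and eBayes settings, the block, voom on recovered fragments, and leaving out samples or pairs. Voom with the block and 1 pair left out was added after seeing the data. Plots were made in Python 3.11.15 (matplotlib 3.10.9).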

Additional observations from a re-analysis of the deposited data

How the results depend on the processing

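The number of CDK inhibitor genes past both thresholds was 0 in limma without the block and under every alternative but voom with the replicate block, where it was 1 (Cdkn2a). With 1 pair left out of that fit it ran from 0 to 2. The same number for the genes of the 6 lists was 0 in limma, 2 with the replicate block and 5 with voom and the block, and it ran from 0 to 1 and from 0 to 8 when a pair was left out of these fits. For all genes it was 5 in limma, 2 with a pseudocount of 0.01 FPKM, with quantile normalization or with median-ratio scaling, and 8 with all genes unfiltered or with no trend in eBayes. It was 230 with the replicate block and 503 with voom and the block. It was 0 in each fit that left out 1 sample, ran from 0 to 83 in the blocked fits without 1 pair, and was 11, 536 and 803 in those with voom (without replicate 2, 1 and 3). A blocked fit without 1 pair leaves 1 residual degree of freedom, so its counts are unsteady. The log2 fold change of Cdkn2d ran from -0.0249 to 0.40 with 1 sample left out, negative without control replicate 2. No other log2 fold change of a CDK inhibitor gene turned direction. That of Cdkn1a ran from 0.08 to 0.34, that of Cdkn2a from 0.84 to 1.61 and that of Cdkn2b from 0.55 to 0.98. The cause was not tested.

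Depth limits the low genes most, since Cdkn2b rested on 50 to 143 fragments and Cdkn2a on 47 to 301. Strand handling in the counting is not given, so reads shared with overlapping or antisense genes were not separated.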
